A study of Heterocephalus glaber with 24 samples.

Results

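The amplicon on scaffold JH602048 of the naked mole-rat genome held 15 CpGs, from position 1786784 to position 1786888, out of 206 CpGs in 48 amplicons measured in liver DNA of 24 animals. Its members were all CpGs that the count tables list in this window. The window was chosen because its mean level was higher in old than in young livers in these same data. Differences in level with age are therefore given here as a description. Where the calls of the model fitted over all 206 CpGs are quoted for these 15, they come from the contrast that chose the window and are not independent support for a gain. The naked mole-rat (Heterocephalus glaber) is a burrowing rodent known for a long life for its size. The animals were kept in captivity and showed no obvious disease, and they differed only in age as far as the labels say. Young animals were 39 to 52 weeks old (n = 5), middle-aged ones 234 to 520 weeks (n = 13) and old ones 910 to 1144 weeks (n = 6), with no animal between 520 and 910 weeks. Sex, batch and date are not in the labels, so their part in any difference cannot be told apart from that of age.

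A CpG is a cytosine followed by guanine, and the cytosine can carry a methyl group that is copied when cells divide. Stretches dense in CpGs are mostly unmethylated in mammalian tissues, and a gain of methylation at some of them with age is well known in human blood and other tissues. Bisulphite turns unmethylated cytosine into a base read as thymine, so the methylation level of a CpG is the share of reads that still show cytosine. The level describes a mixture of cells, since liver DNA comes from hepatocytes and other cells together, and a change within cells and a change in their proportions cannot be told apart.

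This was the amplicon with the most CpGs, 15 against a median of 4. They lay 2 to 28 bp apart (median 5.5 bp) over 105 bp, and 3 pairs of neighbours were only 2 bp apart. The primer table of the study lists the amplified fragment at JH602048 from 1786748 to 1787040 (hetGla2), so the first CpG lay 36 bp from its start and the last 152 bp from its end. The parts of the primers that match this fragment are shown because they fix which molecules were read. They are given 5′ to 3′ without the tails common to all primers of the table.
Forward: tgtgtgaaaaaTaagagtggtggt
Reverse: tttcctcccttcctcctAaca
The capitals are those of the study's table, which capitalises only T in forward and only A in reverse primers, the bases that a converted cytosine gives on the strand and on its copy. Neither primer holds a CG. No gene is named here, because no annotation of hetGla2 was at hand.

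The data on this amplicon were shallow beside the rest of the series. Single CpGs had 249 to 779 reads per liver (median 518), against a median of 5377 reads over all 206 CpGs, and library totals ranged from 1679834 to 2271156 CpG calls. Over the 360 levels, the half-width of the Wilson 95% binomial interval was 0.257 to 5.13 percentage points (median 0.672). There were 56 levels with no methylated read. For these, 3 reads over the depth was taken as the upper limit, which gave 0.404% to 1.12%. The Wilson upper limits of the levels at the ends of that range were higher, 0.514% and 1.41%. No molecular identifiers are described for the PCR, reads are therefore not independent molecules, and these intervals and limits cover counting error only.

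Averaged over the 15 CpGs, the level stood near 0 in young livers, slightly higher in middle-aged ones and clearly above both in old ones. The mean was 0.676% ± 0.385 in the 5 young livers, 1.32% ± 0.818 in the 13 middle-aged livers and 5.90% ± 1.35 in the 6 old livers (mean ± SD). In order of age, the old livers stood at 5.82% (replicate 3, 910 weeks), 5.43% (replicate 5, 910 weeks), 5.48% (replicate 4, 988 weeks), 8.27% (replicate 2, 1040 weeks), 4.16% (replicate 6, 1092 weeks) and 6.24% (replicate 1, 1144 weeks). The young livers ranged from 0.298% to 1.27%, and the middle-aged ones from 0.349% to 3.03% with a median of 0.900%. No middle-aged liver reached the lowest old one, and 6 of 13 lay above the highest young one. Within the classes the levels did not rise in order of age. Among young livers they fell with age, from 1.27% and 0.834% at 39 weeks to 0.563% and 0.420% at 41.6 weeks and 0.298% at 52 weeks. The oldest middle-aged animal (520 weeks) had 2.07%, below both 3.03% in a liver of 260 weeks and 2.48% in one of 312 weeks.

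**Figure D1:**
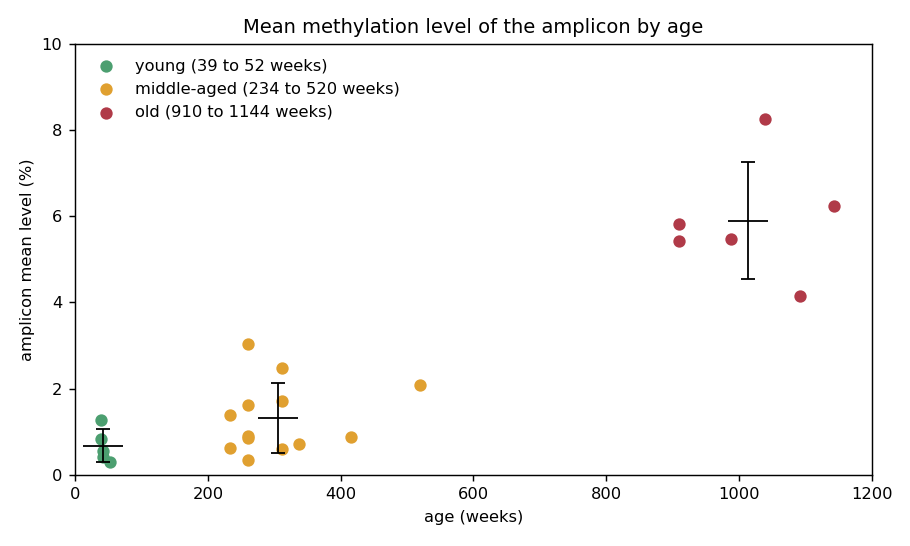
Mean level of the 15 CpGs (%, y axis) against age (weeks, x axis), 1 point per liver, with a black bar for each class mean and its SD. The 6 old livers sit between 4.16% and 8.27%, all above the 18 younger ones, and no animal lies between 520 and 910 weeks.

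Most of the difference between the classes lay between middle and old age. The class mean changed by 0.647 percentage points over the 263.4 weeks between the young and middle-aged mean ages, or 0.246 per 100 weeks. It changed by 4.58 over the 708 weeks from there to the old mean age, or 0.646 per 100 weeks. When within that last interval the level changed cannot be seen, because no liver fell into its widest part. The middle-aged class had covered 12.4% of the distance from the young to the old mean. On the 4 other amplicons that an earlier analysis of these data had called as gaining, that share was 34.2% on JH602136, 19.7% on JH602050, 6.86% on JH602069 and -19.7% on JH602160, where the middle-aged mean lay below the young one. On the second amplicon of scaffold JH602048, whose mean was also higher in old than in young livers, by 3.83 percentage points, it was 91.8%. The amplicon was singled out for its late gain, and these shares were not compared by a test.

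The gain was spread unevenly along the amplicon. The first 3 CpGs stayed close to 0 at every age, a broad block from 1786845 to 1786884 held most of the old-age methylation, and the last CpG was low again. At the first CpG, 1786784, which also had the lowest old mean, old livers stood at 0.353%, 0.241%, 0.217%, 0%, 0.248% and 0.488% in the order of age above, against 0% in 4 young livers and 0.449% in the fifth. The class means there were 0.0898% ± 0.201 in the 5 young livers, 0.380% ± 0.280 in the 13 middle-aged livers and 0.258% ± 0.162 in the 6 old livers (mean ± SD), so that the classes overlapped. The level at 1786796 was at most 1.52% in any liver. At 1786806 only old replicate 1 stood out, at 7.33%, with the other 23 livers at or under 0.995%. These CpGs were covered by about as many reads as the rest or more, since the read number at the last CpG was 82.4% ± 1.03 of that at the first in old (SD, n = 6) and 81.4% ± 0.960 in young livers (SD, n = 5).

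**Figure D2:**
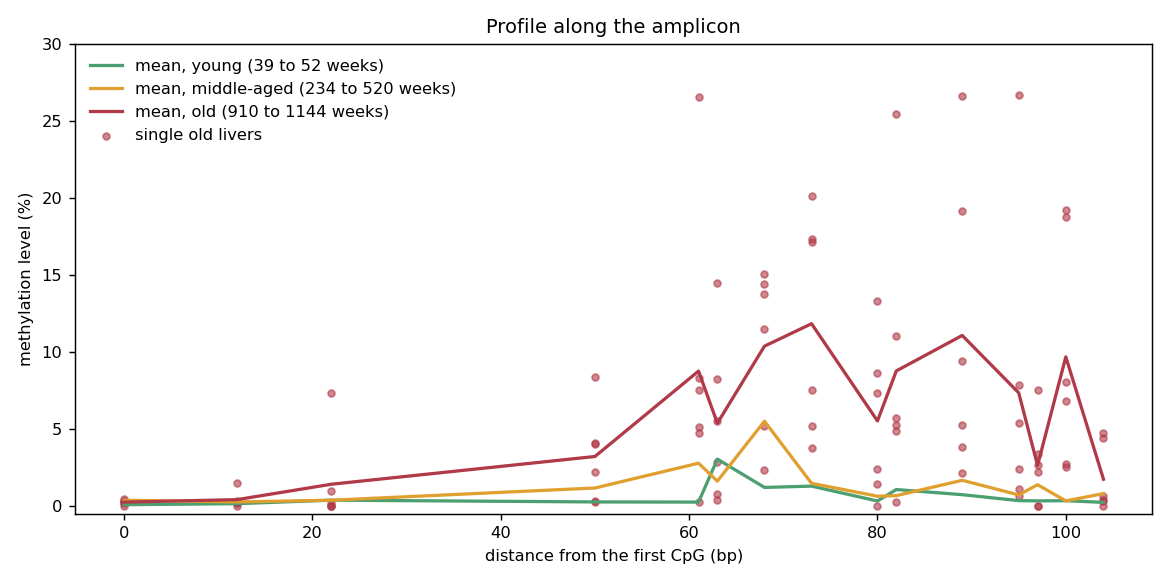
Methylation level (%, y axis) against the distance from the first CpG (bp, x axis), with lines for the class means and dots for single old livers. The old mean is under 1.5% at the first 3 CpGs, reaches 11.8% at 73 bp and drops to 1.74% at the last CpG, while single old livers scatter widely around it.

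From the fourth CpG on, every CpG had a higher mean in old than in young and in middle-aged livers. The old means were 3.22% at 1786834, 8.76% at 1786845, 5.38% at 1786847, 10.4% at 1786852, 11.8% at 1786857, 5.53% at 1786864, 8.77% at 1786866, 11.1% at 1786873, 7.35% at 1786879, 2.64% at 1786881, 9.69% at 1786884 and 1.74% at 1786888. The young means at these 12 CpGs ran from 0.240% to 3.05% and the middle-aged means from 0.337% to 5.51%. The profile was thus saw-toothed rather than smooth, with peaks at 1786857, 1786873 and 1786884 and dips at 1786864 and 1786881.

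The highest old mean was at 1786857. In order of age, the old livers had 20.1%, 5.17%, 17.3%, 17.1%, 7.54% and 3.75% there, against 0.154% to 3.49% in young livers, with a median of 0.527%. Every old liver lay above every young one, but the middle-aged livers ranged from 0% to 8.55% (median 0.440%), and the highest of them exceeded 3 of the old ones. Old replicates 3, 4 and 2 formed a high set and replicates 5, 6 and 1 a low one at this CpG.

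The CpG at 1786884 separated the classes most cleanly. In order of age, the old livers had 19.2%, 2.73%, 8.09%, 6.82%, 2.51% and 18.8%, against 0.164% to 0.577% in young livers. The 13 middle-aged livers ranged from 0% to 2.26% (median 0.198%), so all 6 old livers lay above all 18 younger ones. Of the 206 CpGs, 0.971% showed this complete separation, and 1 of the 15 here. At 3 of the 15, every old liver lay above every young one, against 5.83% of all CpGs. At 1786857 and 1786879 that margin too was within counting error. The lowest old and highest young levels were 3.75% and 3.49% at 1786857, and 0.625% and 0.588% at 1786879. Only 4 bp further on, at 1786888, the last CpG, the old livers had 0.638%, 4.40%, 4.72%, 0.402%, 0% and 0.303%, against 0% to 0.766% in young livers. The drop of 7.94 percentage points in the old mean from 1786884 to 1786888 was the largest step between neighbours in the amplicon. Old replicates 3 and 1, the highest at 1786884, were among the low ones at 1786888.

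With a straight line on age, 5 of the 15 CpGs had a positive slope with an adjusted p under 0.05, namely 1786857, 1786864, 1786866, 1786873 and 1786884. Over all 206 CpGs, 7.28% were called as such gains, but the amplicon was chosen by the same contrast, so nothing is read from its count. Their slopes were 1.14 ± 0.247, 0.606 ± 0.141, 0.942 ± 0.255, 1.15 ± 0.307 and 1.06 ± 0.219 percentage points per 100 weeks (SE, n = 24), in order of position. The CpG at 1786852, with an old mean almost as high, was not among them (slope 0.776 ± 0.365), nor were 1786845 (0.776 ± 0.304) and 1786879 (0.809 ± 0.268). At 1786852 and 1786845, 5 and 3 middle-aged livers had levels of 5% or more, and at 1786879 none had. With log2 of age in place of age, 0 of the 15 CpGs passed the linear model after adjustment, against 10 of all 206, and 8 of the 15 had an unadjusted p under 0.05, against 39 of all 206. Spearman correlation passed 1 of the 15 and 13 of all 206, and the model that also held the library total passed 3 and 12. The 1 passed by Spearman correlation was none of the 5 named above, whose adjusted p by that test was 0.0659 to 0.178. The model with the library total kept 1786857, 1786864 and 1786884. Over all 206 CpGs these alternatives count gains and losses together, as do the 21 called on age in weeks, 15 of them gains.

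A liver was taken to carry methylation at a CpG where its level was 5% or more. On this count 1 of 75 pairs of CpG and liver was carried in young (1.33%), 15 of 195 in middle-aged (7.69%) and 38 of 90 in old animals (42.2%). All 6 old livers carried methylation somewhere, at 7, 6, 6, 10, 4 and 5 CpGs in order of age, whereas the 13 middle-aged livers carried it at 0 to 3 CpGs and 3 of them at none. At this threshold 0 CpGs were carried by all 6 old livers, and 1786852 and 1786857 were each carried by 5 of 6. At a threshold of 2%, 4 CpGs were carried by all 6, namely 1786852, 1786857, 1786873 and 1786884.

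**Figure D3:**
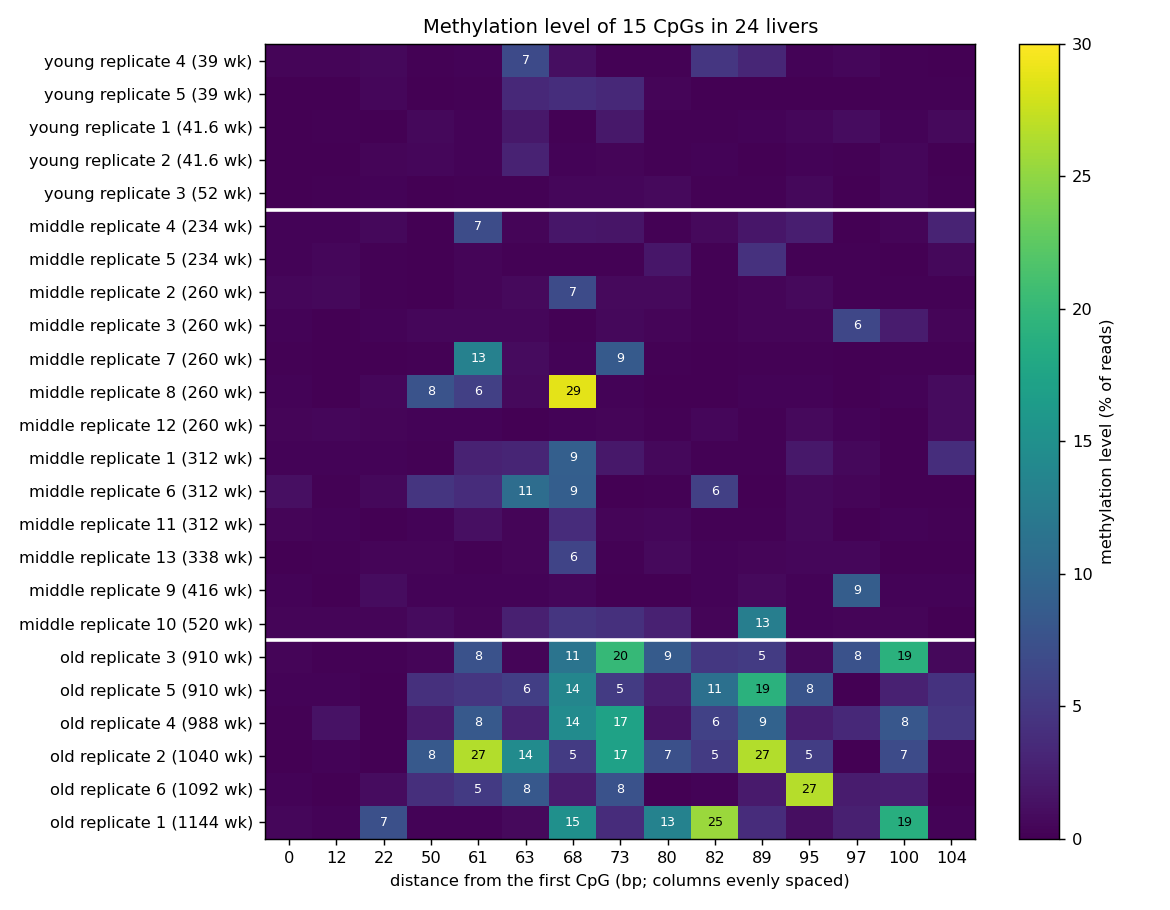
Methylation level (colour, % of reads) of the 15 CpGs (columns, labelled by distance from the first CpG in bp) in the 24 livers (rows, ordered by class and age), with levels of 5% or more printed rounded. In the 18 younger livers 16 cells reach 5%, in the 6 old ones 38 do, and the methylated CpGs differ from liver to liver.

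In 10 of 13 middle-aged livers, 1 to 3 CpGs reached 5%. The 1 liver with the highest middle-aged mean, replicate 8 of 260 weeks, owed 63.1% of its summed level to a single CpG, 1786852, where 116 of 404 reads were methylated (28.7%, Wilson 95% interval 24.5% to 33.3%). Its neighbour 5 bp away, 1786857, had 1 methylated read of 415 (0.241%), and its neighbour 5 bp away on the other side, 1786847, had 3 of 401 (0.748%). Further on that side, 1786845 and 1786834 had 5.71% and 7.71%. Replicate 6 of 312 weeks, with the second-highest mean, had a raised run of 4.65%, 3.75%, 10.8% and 8.996% at 1786834, 1786845, 1786847 and 1786852, then 0% at 1786857 and 5.69% at 1786866, and 28.9% of its summed level was at its highest CpG. Replicate 7, also of 260 weeks, had 13.2% at 1786845, 0.882% at 1786847 and 8.55% at 1786857. The liver of 520 weeks had 12.9% at 1786873 and 0.238% at 1786879. Replicate 9 of 416 weeks had 8.85% at 1786881 and 0.264% at 1786879, 2 bp away. Over the 13 livers the highest CpG made up 17.5% to 67.5% of the summed level (median 45.8%). In old livers it made up 21.1% to 42.8% (median 23.3%).

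The CpGs also differed in the ages at which they were carried. At 1786852, 5 of 13 middle-aged and 5 of 6 old livers carried methylation, and it was the highest CpG in 5 middle-aged livers. At 1786845, 3 middle-aged and 4 old livers did. By contrast, 1786864, 1786879, 1786884 and 1786806 were carried by none of the 18 younger livers, and by 3, 3, 4 and 1 of the 6 old ones. At 4 CpGs the middle-aged mean lay below the young one. The gap was widest at 1786847, with 1.62% ± 2.90 in middle-aged (SD, n = 13) and 3.05% ± 2.40 in young livers (SD, n = 5). The middle-aged and young means were 0.678% and 1.07% at 1786866, 0.381% and 0.385% at 1786806, and 0.337% and 0.350% at 1786884. In the young livers 1786847 had 6.72%, 3.50%, 1.98%, 2.87% and 0.181% in order of age, and it was the highest CpG in 3 of them. These CpGs were picked after their values were seen, and the differences between their courses were not tested.

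Old livers did not share 1 profile. The highest CpG was 1786857 in replicates 3 and 4 (20.1% and 17.3%), 1786873 in replicates 5 and 2 (19.2% and 26.6%), 1786879 in replicate 6 (26.7%) and 1786866 in replicate 1 (25.5%). At 1786879 the other 5 old livers had 0.625% to 7.84%, and at 1786866 they had 0.271% to 11.1%. These single levels were well beyond counting error, with a Wilson 95% interval of 22.4% to 31.5% for 96 methylated reads of 360 in replicate 6. Replicate 2 had a second CpG of nearly the same height, 1786845, at 26.6%, where replicate 1 had 0.252%. Across the 15 CpGs, Pearson's r between the profiles of pairs of old livers ranged from -0.277 to 0.772, with a median of 0.243 over 15 pairs. The CpGs of a profile share a fragment and a library, so these values describe likeness and nothing more.

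The unlike profiles were not found in every amplicon that gained methylation. On JH602136, with 13 CpGs, the same measure had a median of 0.965 (0.768 to 0.991). On JH602050 (6 CpGs), JH602069 (9 CpGs) and JH602160 (8 CpGs) the medians were 0.320, 0.329 and 0.275, near that on JH602048. Median depth was 518 reads per CpG on JH602048, 39017 on JH602136, 3784.5 on JH602050, 8771.5 on JH602069 and 5273.5 on JH602160, and its part in these values was not tested. On the other amplicon of the same scaffold, 4 CpGs that begin 9274545 bp away, the mean was 5.49% ± 3.18 in the 5 young livers, 9.01% ± 4.48 in the 13 middle-aged livers and 9.32% ± 3.91 in the 6 old livers (mean ± SD), with 0 of the 4 CpGs called as gains by the linear model after adjustment and 0 at an unadjusted p under 0.05.

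Neighbouring CpGs differed in level about as much as distant ones within an old liver. In old livers, adjacent CpGs differed by 6.74 ± 1.99 percentage points on average (SD, n = 6), and all pairs of the 15 CpGs by 7.20 ± 1.67. Among the last 12 CpGs alone, adjacent ones differed by 8.005 ± 2.26 and all pairs by 7.60 ± 1.83. Pairs of these 12 up to 5 bp apart differed by 7.96 on average (8 pairs), those 6 to 20 bp apart by 7.72 (28 pairs) and those 21 to 54 bp apart by 7.39 (30 pairs). The difference in level thus did not grow with distance over this range.

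**Figure D4:**
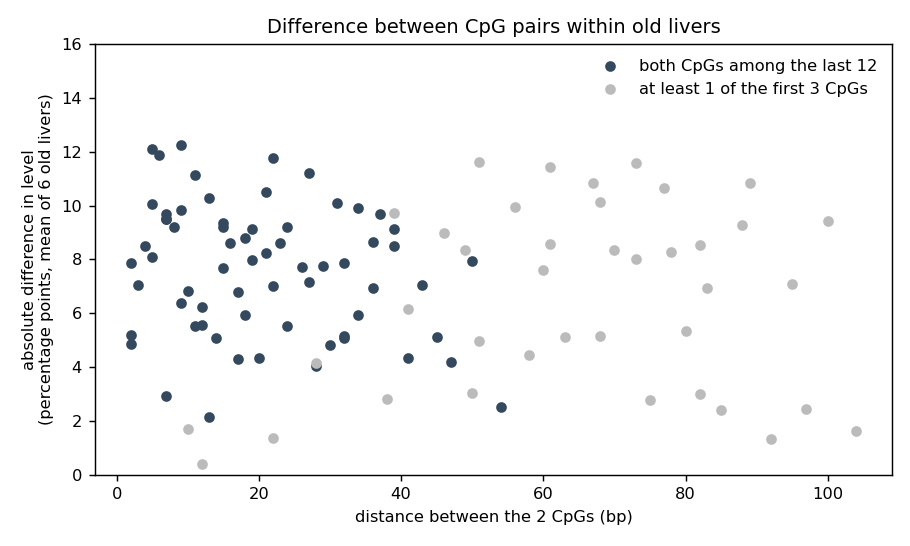
Absolute difference in level between the 2 CpGs of each of the 105 pairs (percentage points, mean of the 6 old livers, y axis) against their distance (bp, x axis), with pairs that include 1 of the first 3 CpGs in grey. Among the last 12 CpGs, pairs 2 to 5 bp apart differ by 4.84 to 12.1, within the range of pairs further apart.

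When only carriage was counted, the outcome depended on the CpGs included. Among the last 12 CpGs of the old livers, both CpGs were carried in 19 of 66 adjacent pairs, 1 of them in 35 and neither in 12. Where at least 1 was carried, both were in 35.2% of adjacent pairs and in 36.1% of all pairs. Over all 15 CpGs, which adds the first 3 with almost no carriage, these shares were 33.3% and 26.7%. In middle-aged livers both of the last 12 were carried in 2 of 143 adjacent pairs and 1 of them in 25, which gave 7.41% of adjacent pairs against 4.43% of all pairs. The differences between these shares were not tested. The count tables give no pattern for single reads, so whether neighbouring methyl groups lay on the same molecules was not analysed here.

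The 3 pairs of CpGs that lie 2 bp apart were unlike in some old livers and alike in others. Their mean absolute differences were 4.84, 5.21 and 7.85 percentage points, in order of position. At 1786864 and 1786866, old livers had 8.65% and 4.85%, 2.43% and 11.1%, 1.43% and 5.75%, 7.35% and 5.26%, 0% and 0.271%, and 13.3% and 25.5%, in order of age. The second CpG was thus higher in 4 livers and lower in 2. At 1786879 and 1786881 they had 0.625% and 7.51%, 7.84% and 0%, 2.44% and 3.41%, 5.43% and 0%, 26.7% and 2.24%, and 1.12% and 2.67%, so the second was higher in 3 livers and lower in 3. At 1786845 and 1786847 they had 7.52% and 0.368%, 4.76% and 5.53%, 8.33% and 2.89%, 26.6% and 14.5%, 5.14% and 8.22%, and 0.252% and 0.777%. Here both were lowest or nearly so in replicate 1 and both highest in replicate 2.

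The 2 ends of the amplicon are set side by side as a description, since these levels chose the amplicon. In old livers the last 5 CpGs had a mean of 6.50% ± 0.908 and the first 5 a mean of 2.82% ± 2.10 (SD, n = 6). The last 5 were higher in 6 of 6 old livers, by 3.68 ± 1.60 percentage points (SD). The difference rested on the first 3 CpGs. Without them, the last 6 CpGs lay 0.640 percentage points below the 6 before them and were higher in 3 of 6 livers. In middle-aged livers the last 5 minus the first 5 CpGs came to -0.0110 ± 1.53 (SD, n = 13), and in young ones to 0.173 ± 0.240 (SD, n = 5).

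The number of reads on the amplicon, which played no part in choosing it, also moved with age. The amplicon's share of all CpG calls in a library was 0.426% ± 0.0513 in the 5 young livers, 0.401% ± 0.0658 in the 13 middle-aged livers and 0.325% ± 0.0461 in the 6 old livers (mean ± SD). The share fell with age across the 24 livers. Pearson's r was -0.619 (permutation p = 0.00137, adjusted p = 0.00411), and rho by Spearman's method was -0.617 (permutation p = 0.00176, adjusted p = 0.00528). The value of r was -0.553 once the 2 ages farthest from the median had been left out (permutation p = 0.00735). Among middle-aged livers alone r was -0.417 (permutation p = 0.161, adjusted p = 0.236, n = 13), and rho was -0.364 (permutation p = 0.220). Among old livers alone r was -0.580 (exact permutation p = 0.236, n = 6) and rho -0.667 (exact permutation p = 0.161). The relation thus did not pass within either of these classes, and the 5 young livers were not tested on their own. The adjustment was over 3 relations. A share also depends on the reads of the other amplicons, whose own shares were not tested against age. Median reads per CpG in old livers and in all 24 were 398 and 518 here and 34309 and 39017 on JH602136. They were 3552 and 3784.5 on JH602050, 9479 and 8771.5 on JH602069, and 4900.5 and 5273.5 on JH602160. On the second amplicon of scaffold JH602048 they were 3342.5 and 3459.

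**Figure D5:**
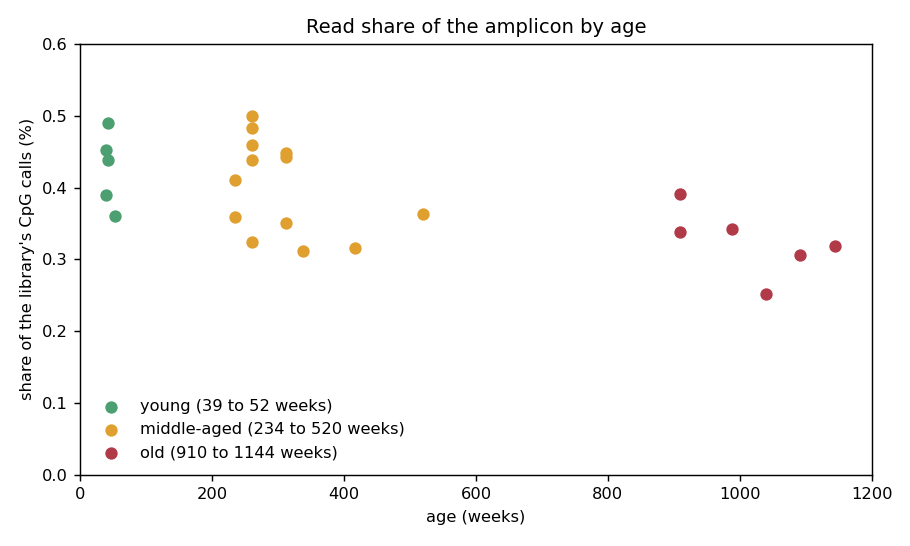
Share of each library's CpG calls that fell on the amplicon (%, y axis) against age (weeks, x axis), 1 point per liver. Old livers range from 0.252% to 0.391% and young ones from 0.361% to 0.490%, with middle-aged livers between 0.312% and 0.5002%.

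Old livers had both higher levels and fewer reads. Mean coverage was 400.4 ± 81.8 reads per CpG in old (SD, n = 6) and 592.2 ± 60.2 in young livers (SD, n = 5). Whole libraries were smaller with age too, at 2089088 ± 102210 CpG calls in the 5 young livers, 1978030 ± 166521 in the 13 middle-aged livers and 1837034 ± 129778 in the 6 old livers (mean ± SD), so coverage, unlike the share above, also holds that difference. Old replicate 2 had the highest mean level, 8.27%, and the smallest share, 0.252%, and middle-aged replicate 8 had the highest level of its class, 3.03%, at a share of 0.325%. Middle-aged replicates 13 and 9 had smaller shares still, 0.312% and 0.316%, with means of 0.706% and 0.874%. The part of depth in the levels was not tested.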

How the data were processed

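Methylation was measured by bisulphite PCR of targeted regions and Illumina NextSeq sequencing in 24 livers. The authors deposited, for each liver, counts of methylated reads and of all reads per CpG, not normalised. The study's methods describe alignment to hetGla2 with Bismark and Bowtie2, removal of off-target reads, and removal of CpGs under 50 reads. Bismark 0.13.1 is named in the submitters' processing notes and a later version in the methods, so the version behind the counts is not known. The sources used here do not say whether positions count from 0 or 1. Array tables of Tc1 mice were not used.

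The level was methylated over all reads. Requiring 50 reads in 20 or more livers removed 0 CpGs. CpGs under 400 bp apart formed an amplicon. The members, classes and named CpGs were chosen with earlier results of these data known. Named CpGs were that of smallest p, those of highest and lowest old mean, the first, the last and the largest step between neighbours; others were picked after their values were seen. Replicate numbers only name animals.

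Levels of all 206 CpGs were fitted by least squares on age in weeks, with Benjamini-Hochberg adjustment over 206 CpGs. A sign-flip test planned between the ends of the amplicon is not quoted, because it uses the levels that chose it. Correlations used 100000 permutations, or all orders for 6 livers, and all tests were two-sided. Alternatives were a quasi-binomial model, Spearman correlation, the M value (log2 ratio of methylated to unmethylated reads, each plus 1), age on a log2 scale, a model that also held the library total, a minimum of 200 reads, pooled reads, other carriage thresholds, other end windows (the last 6 CpGs against the 6 before them was added after seeing the data) and leaving out livers. On simulated counts with the real coverage, the linear and quasi-binomial models each recovered 20 of 20 changed CpGs among 206, with 0 false calls. The planted slope was larger than any slope called in the amplicon, and the spread between livers was a fixed setting, not taken from the data. The simulation therefore checks that the models run correctly and cannot tell how often gains of the size seen here are found. Python 3.11.15, scipy 1.17.1 and statsmodels 0.14.6 were used.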

Additional observations from a re-analysis of the deposited data

Results flagged for a closer look

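In groups of 5 young or 6 old livers, 14 sets of values were searched for a single liver far from the others, and 2 were found. The nominal chance rate of the search, about 1 in 20, is meant for normally distributed values. Both sets found hold levels at or near 0, so 2 of 14 is not read as an excess. At 1786784, young replicate 4 stood at 0.449% (3 methylated reads of 668) while the other 4 young livers stood at 0%. At 1786888, young replicate 1 stood at 0.766% (4 of 522 reads), with the next young liver at 0.221%. Both rest on a handful of reads.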

How the results depend on the processing

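Over the whole series 21 CpGs were called in either direction, 15 of them gains. The 21 became 13 with Spearman correlation, 10 with log2 of age and 12 when the model also held the library total. With single livers left out they numbered 16 to 24. The number of calls in the amplicon, 5, became 1, 0 and 3 under those alternatives. It was 6 with the quasi-binomial model or the M value, and 5 with a minimum of 200 reads. The 1 call by Spearman correlation was none of the 5, whose adjusted p by that test was 0.0659 to 0.178. With single livers left out it held 5 to 7. As the amplicon was chosen on these levels, such counts say nothing on how secure its gain is. The mean of old minus young livers, 5.22 percentage points, was 5.21 with pooled reads and 4.75 to 5.57 with single livers left out. The difference between the ends in old livers was 3.89 with pooled reads, 2.42 with the last 7 against the first 7 CpGs, and -0.640 for the last 6 against the 6 before them. With single old livers left out it was 3.43 to 4.26. The relation of read share to age gave r of -0.684 with mean coverage, -0.417 within the middle class, -0.580 within the old class, and -0.655 to -0.553 with single livers left out. Carried pairs in old livers numbered 57 at a threshold of 2% and 17 at 10%, and CpGs carried by all 6 old livers numbered 4 at 2% and 0 at 5% and 10%. No paired analysis was possible because replicate numbers were given in order of listing and pair no animals. At a depth of 249 to 779 reads, counting error alone reached a half-width of 5.13 percentage points. Reads are not independent molecules, so single levels can be less exact than that.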
